A study of Mus musculus with 4 samples.

Results

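Stefins and cystatins are inhibitors of cysteine proteases, and 7 of their genes are described here out of the 55487 genes in the count table: the stefin A genes Stfa1, Stfa2, Stfa2l1 and Stfa3, the cystatin B gene Cstb, and the genes of the secreted cystatins C and E/M, Cst3 and Cst6. They were chosen by gene symbol, and each symbol had 1 row, so no count decided which row was taken. The set itself was proposed with results of the same comparison known, the low Stfa3 value with imiquimod among them, so the fold changes and adjusted p-values of the members describe the fit and support nothing further. The libraries were made from Langerhans cells isolated from the ears of wild-type mice, 2 after imiquimod and 2 after Vaseline, the control. Imiquimod is a Toll-like receptor 7 agonist that gives a psoriasis-like inflammation when applied to mouse skin. The labels give no age, sex, dose or duration. Separate animals are not named for the 2 libraries of a treatment, so p-values measure the spread among these libraries, part or all of which may be technical. The sample descriptions carry letter codes of unstated meaning, 1 code shared by both Vaseline libraries and 1 for each imiquimod library. Should these codes stand for batches, treatment and batch cannot be told apart.

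Cystatins block papain-type proteases such as the cathepsins by wedging into the active site. Stefins lack a signal peptide and act inside the cell, whereas cystatins C and E/M are secreted and can be taken up into the endosomal pathway. In antigen-presenting cells the balance matters because cathepsin S trims the invariant chain from MHC class II molecules, and in the epidermis because cathepsin L, legumain and transglutaminases act in building the cornified layer. Mice carry several stefin A genes in tandem on chromosome 16, where humans have a single stefin A gene.

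The stefin A copies are alike enough that reads can be shared, so their sequences come first. The lines that follow give the coding bases, from GENCODE release M21 transcripts on GRCm38, aligned to the first 150 of Stfa3, with capitals where a copy differs from Stfa3. Stfa1 and Cstdc5, another gene of the cluster, each lack 18 of these bases, and Cstdc5 is shown because its coding sequence is the most like that of Stfa1.
Stfa3: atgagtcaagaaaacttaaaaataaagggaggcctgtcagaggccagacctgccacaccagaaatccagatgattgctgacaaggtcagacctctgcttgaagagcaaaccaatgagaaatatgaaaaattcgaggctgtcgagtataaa
Stfa1: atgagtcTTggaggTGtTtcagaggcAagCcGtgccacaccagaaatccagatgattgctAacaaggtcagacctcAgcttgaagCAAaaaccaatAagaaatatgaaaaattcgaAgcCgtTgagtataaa
Cstdc5: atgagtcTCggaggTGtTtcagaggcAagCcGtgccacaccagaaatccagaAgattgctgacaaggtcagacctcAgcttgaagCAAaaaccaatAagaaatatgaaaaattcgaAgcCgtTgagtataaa
Stfa2: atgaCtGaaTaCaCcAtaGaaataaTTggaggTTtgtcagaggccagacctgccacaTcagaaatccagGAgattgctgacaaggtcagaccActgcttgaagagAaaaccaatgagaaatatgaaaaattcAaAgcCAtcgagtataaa
Stfa2l1: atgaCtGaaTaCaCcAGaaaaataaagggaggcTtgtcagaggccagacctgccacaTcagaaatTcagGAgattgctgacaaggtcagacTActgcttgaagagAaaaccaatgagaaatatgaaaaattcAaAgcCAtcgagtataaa
Within these stretches Stfa1 and Cstdc5 each differed from Stfa3 at 17 positions, Stfa2 at 20 and Stfa2l1 at 19. For each gene the coding form nearest Stfa3 in length was aligned, which for Stfa1 was a form of 291 bases and not its longest of 384. Over these aligned forms Stfa1 and Cstdc5 were 97.9% identical and Stfa2 and Stfa2l1 96.4%, whereas Stfa3 was 82.1% identical to Stfa1, 80.9% to Stfa2 and 81.6% to Stfa2l1. Among all annotated transcripts, 22.5% of the 50-base windows of Stfa1 occurred exactly in another gene, most of them in Cstdc5, as did 15.9% of those of Stfa2 and 24.6% of those of Stfa2l1. None of the 363 windows of Stfa3 did, nor any of those of Cstb, Cst3 or Cst6. With 75-base windows the shares were 9.2% for Stfa1, 5.8% for Stfa2 and 7.8% for Stfa2l1, and again 0 for the other members. Counts of Stfa1, Stfa2 and Stfa2l1 are therefore uncertain between copies. The read length and the treatment of multi-mapped reads are not given in the sources used here, and matches with mismatches were not searched.

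Library totals were 14902782 and 20690182 counts with imiquimod and 41998172 and 76028955 with Vaseline, so each library samples to a different depth. The langerin gene Cd207, which defines Langerhans cells, had 1201 and 575 CPM (counts scaled to library size with TMM factors) with imiquimod and 2255 and 6883 with Vaseline, while the basal keratinocyte keratin gene Krt14 had 6502 and 1726 against 5560 and 7505 CPM. Keratinocyte RNA was thus present in each library, and fewer cells of a type and less RNA per cell cannot be told apart in these bulk libraries. A low background of reads, measured over olfactory and vomeronasal receptor genes, was 7.84 and 26.0 counts per exonic kilobase with imiquimod. With Vaseline it was 15.9 and 6.94. Scaled to library totals alone, without TMM factors, it was 0.526 and 1.26 CPM per kilobase with imiquimod and 0.377 and 0.0913 with Vaseline. Levels of weak genes are given with the ratio of their counts per kilobase to this background in the same library. Such a ratio does not depend on library scaling.

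Stfa3, a stefin A gene (ENSMUSG00000054905; GRCm38 chromosome 16, 36450537 to 36455392, minus strand), was lower with imiquimod. It had 129 and 108 counts in the imiquimod libraries, against 707 and 4119 in the Vaseline libraries. On the normalised scale these were 8.24 and 3.15 CPM with imiquimod and 17.6 and 90.7 CPM with Vaseline, or 5.70 ± 3.60 and 54.2 ± 51.6 (SD, n = 2 each). The groups did not overlap, and Vaseline 2 alone was far above the other 3 libraries. In the edgeR quasi-likelihood fit of 39439 genes its log2 fold change was -3.32 (SE 0.69), with an adjusted p of 0.00256. Stfa3 was the only one of the 6 members tested to pass the threshold of 0.05, where 0.2% of all genes passed, 0.137% as lower and 0.0634% as higher. By limma-voom it was -3.06 (adjusted p = 0.000731), where 0.449% of genes passed, 0.345% as lower and 0.104% as higher. The edgeR call was lost without Vaseline 2 (-1.68, adjusted p = 0.999), without imiquimod 1 (-4.19, adjusted p = 0.204) and without imiquimod 2 (-2.72, adjusted p = 1.0) but not without Vaseline 1 (-4.13, adjusted p = 0.00352). Among genes at 5 times the background or more, fitted alone, the value was -2.44, which did not pass by edgeR (adjusted p = 0.441) but did by DESeq2 (-2.48, adjusted p = 0.0111). The 5 Langerhans cell marker genes, Cd207, Epcam, Cd74, Mfge8 and Itgax, all had negative values. None passed the edgeR threshold, and 1 was lower at an unadjusted p under 0.05, as were 5.10% of all genes tested. DESeq2 called 4 of them lower, where it called 1.7% of all genes lower and 0.0152% higher. Their summed levels were 5926 and 4780 CPM with imiquimod and 16240 and 44390 with Vaseline, and their part in the Stfa3 result was not tested.

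**Figure D1:**
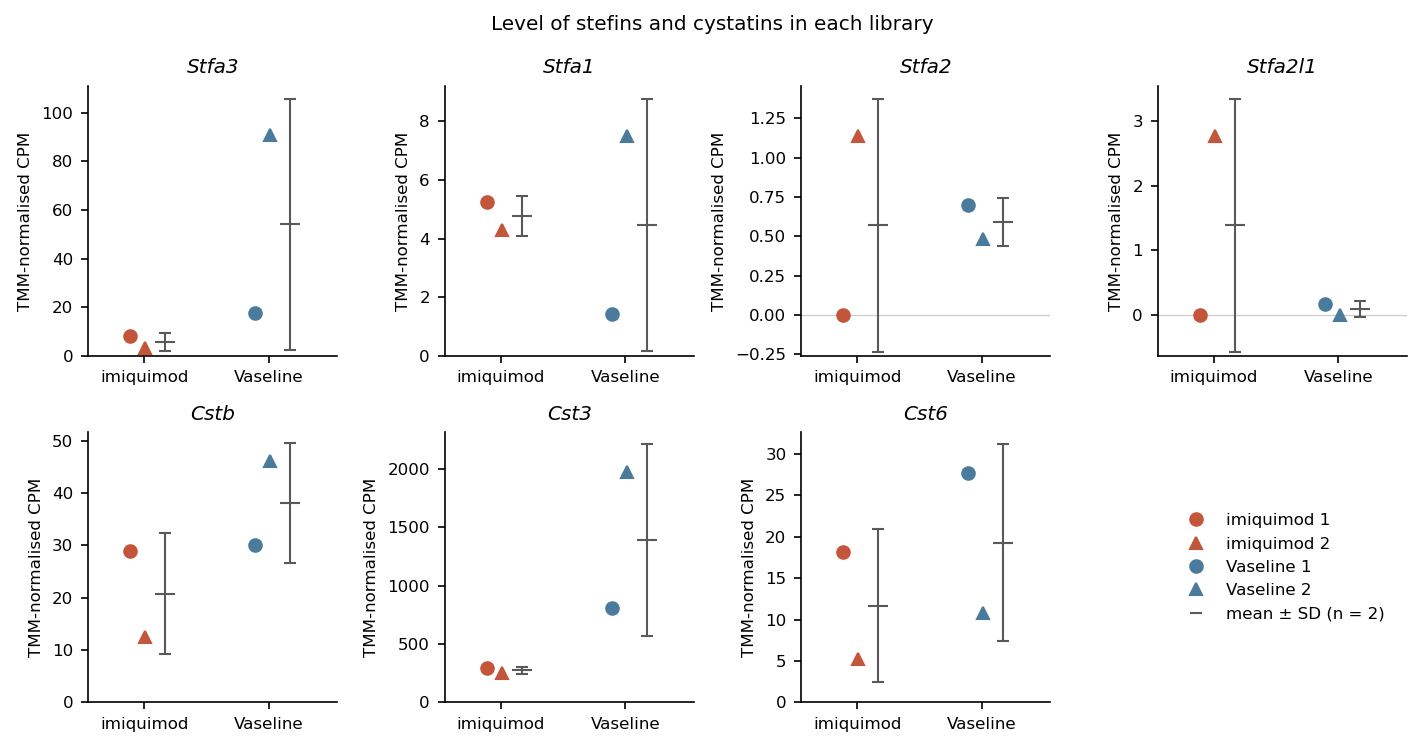
TMM-normalised CPM of the 7 genes in each library, with a linear axis for each gene; circles are replicate 1, triangles replicate 2, and grey bars the mean ± SD of 2 libraries. Stfa3, Cstb and Cst3 have both imiquimod libraries below both Vaseline libraries, and Stfa2l1 stands out in imiquimod 2 alone.

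Stfa1 (ENSMUSG00000071562; chromosome 16, 36276951 to 36285373), a stefin A copy on the plus strand, overlapped between the groups. It had 82 and 147 counts with imiquimod and 57 and 341 with Vaseline, which is 5.24 and 4.29 CPM against 1.42 and 7.51 CPM. The imiquimod libraries lay between the Vaseline libraries, at means of 4.76 ± 0.67 and 4.47 ± 4.30 CPM (SD, n = 2 each). The fitted log2 fold change was 0.06 (SE 0.65, edgeR adjusted p = 0.961). Its sign was not stable: it was -0.29 with RLE factors and 1.04 with no factors beyond the totals. Fitted with genes at 5 times the background or more it was 1.01 (SE 0.66, edgeR adjusted p = 0.596). Without Vaseline 1 it was -0.78 and without Vaseline 2 it was 1.71.

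Stfa2 and Stfa2l1, the other near-identical pair, were scarce. Stfa2 (ENSMUSG00000022902; chromosome 16, 36403992 to 36408457) had 0 and 39 counts with imiquimod and 28 and 22 with Vaseline, with a fitted log2 fold change of 0.31 (SE 0.99, edgeR adjusted p = 0.864). Its level was at most 6.73 times the background in any library. Stfa2l1 (ENSMUSG00000059657; chromosome 16, 36156811 to 36161953) had 0 and 95 counts with imiquimod and 7 and 0 with Vaseline. The 95 counts of imiquimod 2 were 8.73 times the background there, and the 0 in imiquimod 1 allows up to 0.192 CPM, the level of 3 counts. Stfa2l1 was left out by the filter on low counts, being above it in 1 library, so it has no test among the genes fitted. The summed level of 8 neutrophil markers was also highest in imiquimod 2, at 71.9 and 242 CPM with imiquimod and 22.2 and 56.7 with Vaseline. Most of it was S100a8 and S100a9, at 48.1 and 152 CPM in imiquimod 2, and which cells gave these counts was not tested. Ly6g was nearly level between the imiquimod libraries, at 1.85 and 1.96 CPM, against 1.37 and 1.23 with Vaseline. Csf3r, Cxcr2 and Retnlg were highest in imiquimod 2, at 19.0, 8.73 and 6.25 CPM. S100a8 passed as higher (log2 fold change 2.69, edgeR adjusted p = 0.0193). Of the 8 markers 6 were positive, where 60.6% of all genes tested were. The 2 negative markers were Mpo and Elane. Mpo, above background, had 4.79 and 5.72 CPM with imiquimod and 11.5 and 8.98 with Vaseline. The primary granule gene Elane had no count in imiquimod 1 or Vaseline 2. The part of neutrophils in the Stfa2l1 counts was not tested.

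The stefin A cluster was also taken as a whole, since a sum is less open to reads moving between the copies in it. Over 11 genes (the 4 members, Csta1, Csta2, Csta3 and Cstdc3 to Cstdc6) it had 615 and 965 counts with imiquimod and 1308 and 7546 with Vaseline. Reads can still be shared with genes outside the sum. Of the 50-base windows of Cstdc5, 12.4% occurred in Gm15845, as did 7.8% of those of Stfa2l1 in Gm49652. Cstdc4 shared such windows with 772 other genes. The summed level of the cluster was 39.3 and 28.2 CPM with imiquimod and 32.6 and 166 CPM with Vaseline, and here the groups overlapped. Stfa3 made up 20.98% (95% Wilson interval 17.9 to 24.4) and 11.2% (9.35 to 13.3) of the cluster counts with imiquimod, against 54.1% (51.3 to 56.7) and 54.6% (53.5 to 55.7) with Vaseline. The intervals treat each read as independent and hold no spread between libraries. Amplified reads lacking molecular identifiers are not separate molecules, so the intervals may be too narrow even for counting error. The Vaseline libraries, which differed several-fold in the Stfa3 level, thus held nearly equal shares, and both imiquimod libraries lay far below them. The Stfa1 share was 13.3% and 15.2% with imiquimod and 4.36% and 4.52% with Vaseline, but shares of 1 total must rise where the gene that holds most of it is lower. Of the counts left without Stfa3, Stfa1 held 16.9% (13.8 to 20.5) and 17.2% (14.8 to 19.8) with imiquimod, against 9.48% (7.39 to 12.1) and 9.95% (8.99 to 11) with Vaseline, a smaller gap, and its own CPM overlapped between the groups. Cstdc5 held 48.8% and 26.3% of all cluster counts with imiquimod and 23.7% and 36.3% with Vaseline, so its groups overlapped. These shares do not depend on library scaling. With Stfa3 left out, the other 10 genes had 486 and 857 counts with imiquimod and 601 and 3427 with Vaseline, or means of 28.0 ± 4.27 and 45.2 ± 42.7 CPM (SD, n = 2 each). On the CPM scale the imiquimod libraries lay between the Vaseline libraries.

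**Figure D2:**
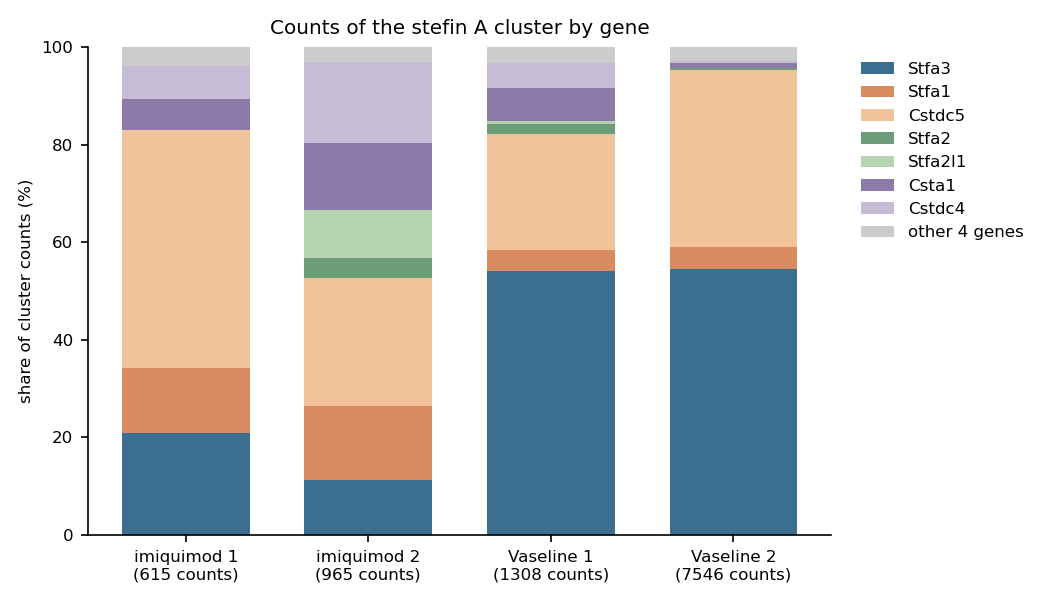
Share of the counts of the 11 stefin A cluster genes held by each gene in each library, in percent; the count behind each bar is given under it. Stfa3 holds 20.98% and 11.2% in the imiquimod libraries and 54.1% and 54.6% in the Vaseline libraries.

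Of the 7 other genes of this cluster, 5 were tested and none passed by edgeR, DESeq2 or limma-voom. At an unadjusted p under 0.05 edgeR gave 1 as higher and 2 as lower, where 8.63% and 5.10% of all genes tested were. There were 3 positive and 2 negative values, with a median log2 fold change of 0.55 against 0.41 over all genes tested. Csta2 had 0 and 17 counts with imiquimod and 28 and 142 with Vaseline (log2 fold change -2.55, SE 1.06, edgeR adjusted p = 0.303). Cstdc5 had 300 and 254 counts against 310 and 2738 (-1.40, SE 0.62, edgeR adjusted p = 0.325), and Vaseline 2 again stood above the rest. Cstdc4, with 42 and 160 counts against 67 and 35, had a value of 1.66 (SE 0.75, edgeR adjusted p = 0.335) at 2.79 times the background.

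Cstb encodes cystatin B, the stefin found in the cytosol and nucleus of most cells, whose loss in humans causes a progressive myoclonus epilepsy. Cstb (ENSMUSG00000005054; chromosome 10, 78425669 to 78427622) had 29.0 and 12.6 CPM with imiquimod and 30.0 and 46.2 CPM with Vaseline. The groups did not overlap, but imiquimod 1 and Vaseline 1 were nearly level. The log2 fold change was -0.90 (SE 0.62, edgeR adjusted p = 0.450), and -0.17 among genes above background (SE 0.32, edgeR adjusted p = 0.863). It was -1.68 without imiquimod 1, -0.39 without imiquimod 2 and -0.56 without Vaseline 2, with no call.

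Cst3 encodes cystatin C, a secreted inhibitor that is a common marker transcript of mouse dendritic cells. It was the most abundant member in each library. Cst3 (ENSMUSG00000027447; chromosome 2, 148871722 to 148875692) had 4624 and 8682 counts with imiquimod and 32425 and 89629 with Vaseline, or 295 and 253 CPM against 809 and 1973 CPM. The means were 274 ± 29.7 and 1391 ± 823 CPM (SD, n = 2 each), and the imiquimod libraries were close together below both Vaseline libraries. In the edgeR fit Cst3 stood at -2.34 on the log2 scale (SE 1.25, adjusted p = 0.378), short of the threshold. DESeq2, which called 1.7% of the same genes lower and 0.0152% higher (1.71% in all), gave -2.67 (adjusted p = 0.00482). Among genes above background the values were -1.48 by edgeR (adjusted p = 0.464) and -1.52 by DESeq2 (adjusted p = 0.0242), where DESeq2 called 1.07% of genes lower and 0.664% higher (1.73% in all) and edgeR 0.0%.

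Cst6 encodes cystatin E/M, an epidermal inhibitor of legumain and cathepsin L, whose loss in mice causes ichthyosis. Cst6 (ENSMUSG00000024846; chromosome 19, 5344705 to 5349574) had 285 and 178 counts with imiquimod and 1109 and 493 with Vaseline, or 18.2 and 5.20 CPM against 27.7 and 10.9 CPM. The groups overlapped, and in each treatment replicate 1 exceeded replicate 2. The log2 fold change was -0.77 (SE 0.60, edgeR adjusted p = 0.492), and -0.24 among genes above background. It was -1.95 without imiquimod 1, -0.06 without imiquimod 2, -0.01 without Vaseline 1 and -1.28 without Vaseline 2, with no call. In imiquimod 2 Cst6 was only 1.68 times the background, so its level there is weakly determined. The basal keratinocyte genes Krt5 and Krt14 summed to 10100 and 2885 CPM with imiquimod and 10520 and 13810 CPM with Vaseline, and their part in the Cst6 level was not tested.

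In all, 3 of the 7 members (Stfa3, Cstb and Cst3) had groups that did not overlap, each lower with imiquimod. Among all genes tested the groups of 51.5% did not overlap, 20.9% with imiquimod lower and 30.5% with imiquimod higher. Among genes at 5 times the background or more, 50.3% were lower in this way and 5.56% higher. Genes high in Vaseline 2 reach that mean ratio more readily, which can by itself raise the share lower with imiquimod. The medians and calls among such genes are open to the same selection. Of the 6 members tested, 4 had negative and 2 positive fold changes, where 60.6% of all genes tested were positive. The median of the 6 members was -0.83 on the log2 scale, against 0.41 over all genes tested. Among genes above background the median was -0.24 for the 5 members fitted and 0.08 for all genes. With 2 libraries against 2, an exact permutation test of a single gene could not reach the threshold, and none was run.

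Levels of different members were compared as CPM per exonic kilobase. Cst3 led in each library, at 233 and 200 CPM per kilobase with imiquimod and 639 and 1559 with Vaseline. Cstb and Stfa3 came next. Cstb stood at 48.1 and 20.9 with imiquimod and 49.8 and 76.6 with Vaseline, and Stfa3 at 20.0 and 7.65 with imiquimod and 42.8 and 220 with Vaseline. Stfa3 therefore ranked below Cstb in both imiquimod libraries and in Vaseline 1, and above it in Vaseline 2. Between these neighbours the order was not stable over the Vaseline libraries. Stfa1 had 7.38 and 6.04 against 2.00 and 10.6 CPM per kilobase, and Cst6 had 4.45 and 1.27 against 6.77 and 2.65. The Cst6 rank depends on the length used: its exon union of 4090 bases exceeds its coding sequence of 447 bases many times, and by coding length it ranked above Stfa3 in 3 of 4 libraries, with Vaseline 2 as the exception.

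Ratios between genes of the same library are free of any scaling factor, and the result depended on the gene used as denominator. Per 1000 counts of Cstb, Stfa3 had 284 and 251 counts with imiquimod and 588 and 1963 with Vaseline. Per 1000 counts of Krt14 it had 1.27 and 1.83 against 3.17 and 12.1, and per 1000 of Cd207 it had 6.86 and 5.48 against 7.83 and 13.2. The imiquimod libraries were below the Vaseline libraries by these 3 measures, though relative to Cd207 the gap between imiquimod 1 and Vaseline 1 was small. Per 1000 counts of Ctss, the cathepsin S gene, Stfa3 had 51.9 and 15.5 against 36.8 and 69.5, and the groups overlapped. Cst3 was lower per 1000 counts of Cstb, at 10190 and 20140 against 26950 and 42720, but not beside Cd207, with 246 and 441 counts per 1000 Cd207 counts with imiquimod and 359 and 287 with Vaseline. The groups overlapped there, and the ratio of their means was 1.06. Cstb was higher relative to Cd207, at 24.2 and 21.9 against 13.3 and 6.71, and overlapped relative to Krt14, at 4.46 and 7.29 against 5.40 and 6.15. Stfa1 was higher relative to Cd207, at 4.36 and 7.47 against 0.631 and 1.09, and relative to Cstb, at 181 and 341 against 47.4 and 163, but overlapped relative to Krt14. These are descriptions of 4 libraries with no test.

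**Figure D3:**
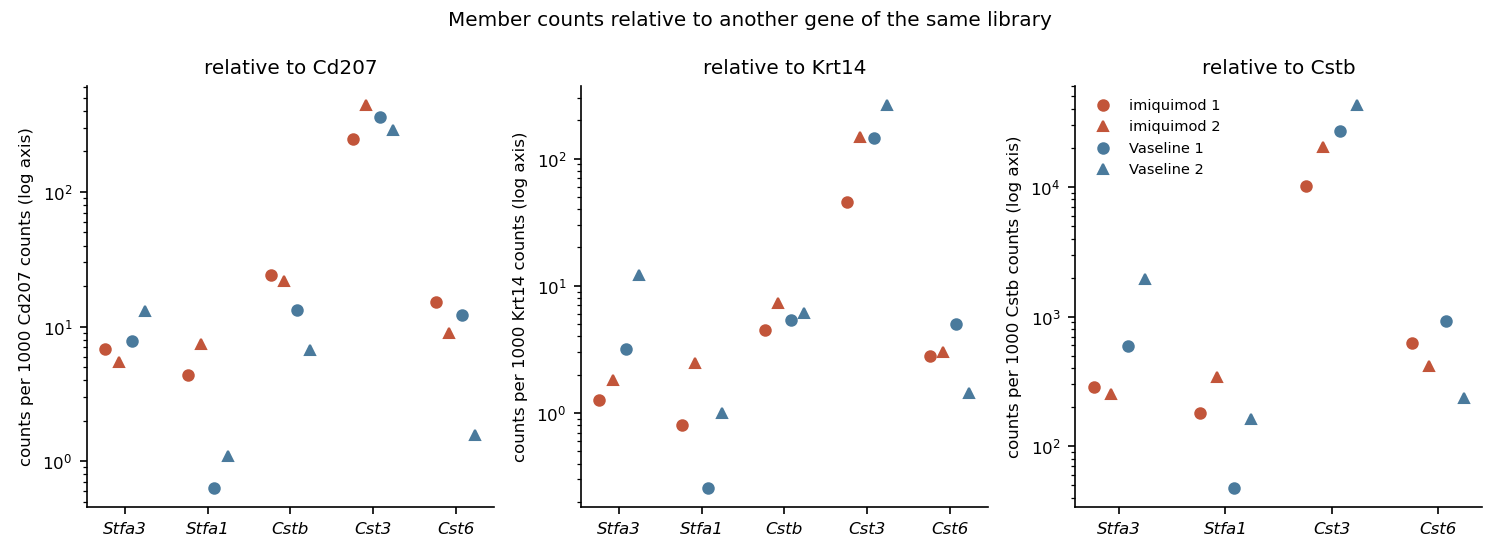
Counts of 5 members per 1000 counts of Cd207 (Langerhans cell), Krt14 (basal keratinocyte) and Cstb in the same library, on log axes; circles are replicate 1 and triangles replicate 2. Stfa3 is lower with imiquimod in the 3 panels, and Cst3 is lower beside Cstb and overlaps between the groups beside Cd207 and Krt14.

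The proteases that these inhibitors act on were followed in a list of 11 genes, 10 cysteine cathepsins and legumain. None passed by edgeR in either direction (0.2% of all genes did); at an unadjusted p under 0.05, 1 was lower and 0 higher, where 5.10% of all genes tested were lower and 8.63% higher. DESeq2 called 1 lower, Ctss, and limma-voom none. Of the fold changes 9 were negative and 2 positive, and their median was -0.77 on the log2 scale, against 0.41 over all genes tested. All 11 lie above background, and in the fit of such genes alone 6 were negative and 5 positive, with a median of -0.06 against 0.08 over all 14602 genes fitted. Ctss, the cathepsin that trims the invariant chain, had 159 and 204 CPM with imiquimod and 480 and 1306 with Vaseline (log2 fold change -2.30, SE 1.11, edgeR adjusted p = 0.348). Ctsc, which activates granule serine proteases, had 46.0 and 39.4 against 76.0 and 139 CPM (-1.33, SE 0.69). Ctsz, a carboxypeptidase, had -1.27 (SE 0.86), and Ctsh, an aminopeptidase, had -1.04 (SE 0.72). Ctsl was the highest of the list in its fold change, at 0.80 (SE 0.73), with 231 CPM in imiquimod 1 and 37.7 in imiquimod 2 against 71.6 and 82.1 with Vaseline, so imiquimod 1 alone was high. Lgmn overlapped between the groups, at 85.9 and 82.9 CPM with imiquimod and 70.3 and 121 CPM with Vaseline.

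Set against the summed level per kilobase of these 11 proteases, the 7 inhibitors together stood at 0.837 and 0.75 times that level with imiquimod and 1.23 and 1.20 times with Vaseline. The groups did not overlap, and replicates were close. Most of this was Cst3, at 0.623 and 0.613 times with imiquimod and 1.06 and 1.00 times with Vaseline. Against Ctss alone the ratio of Cst3 did not separate the groups, at 1.99 and 1.34 with imiquimod and 1.81 and 1.62 with Vaseline. Against legumain it did, at 6.31 and 5.61 with imiquimod and 21.1 and 30.0 with Vaseline. The lengths used are exon unions, which for Cst3 is 1266 bases, while its longest transcript has 860. The size of these ratios, and so which side is larger, depends on the length used. Transcript ratios say nothing of protein amounts, and no test was made of them.

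**Figure D4:**
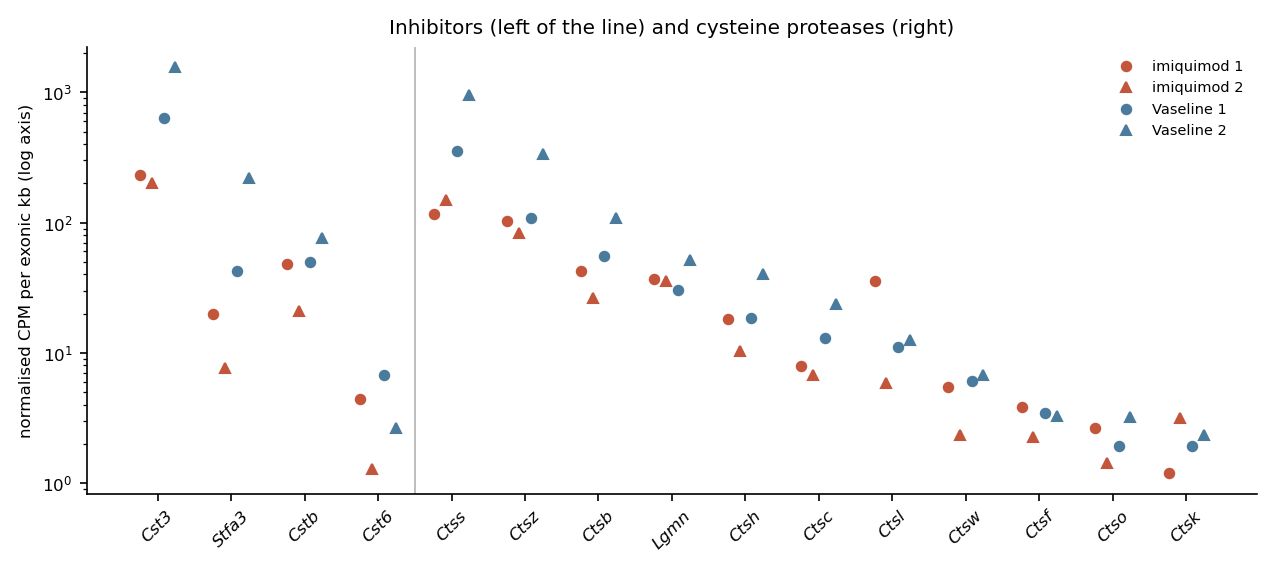
Normalised CPM per exonic kilobase (log axis) of Cst3, Stfa3, Cstb and Cst6, left of the line, and of 11 cysteine proteases, right of it, in the 4 libraries; circles are replicate 1 and triangles replicate 2. Cst3 and Ctss both have their imiquimod libraries below their Vaseline libraries, and the groups of Lgmn overlap.

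Other genes with a cystatin domain were mostly at background. Of 16 such genes found, 15 were tested and none passed by edgeR, DESeq2 or limma-voom. At an unadjusted p under 0.05 edgeR gave 4 as higher, where it gave 8.63% of all genes tested as higher. Of the 15, 11 had positive and 4 negative fold changes, where 60.6% of all genes tested were positive. The receptor background, scaled to library totals, was also higher in both imiquimod libraries, and its part in these values was not tested. Of the 16, 2 lay at 5 times the background or more. Cst8, a cystatin of the male reproductive tract, had 31 and 40 counts with imiquimod and 0 and 0 with Vaseline (edgeR adjusted p = 0.0517). This is at least 22.3-fold higher at 3 counts per Vaseline library. Cst8 stood at 4.64 and 1.81 times the background in the imiquimod libraries, and at a mean of 1.61 over all libraries. Cst11 had 7 and 45 counts against 0 and 0, at least 12.5-fold higher. It stood at 1.45 and 2.82 times the background with imiquimod, and at a mean of 1.07 over all libraries. Both folds are of genes near a background that itself differed between the libraries. Kng2, a kininogen, had a log2 fold change of 2.37 (SE 0.93) at 1.03 times the background. Ngp, a neutrophil granule protein, had 26 and 191 counts with imiquimod and 64 and 23 with Vaseline (1.91, SE 0.77), at 3.69 times the background. Cst7, which encodes cystatin F of immune cells, was above background at 2.81 and 2.86 CPM against 4.17 and 4.23 CPM (-0.56, SE 0.69, edgeR adjusted p = 0.638).

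For the lists that follow, edgeR gave 8.63% of all genes tested as higher and 5.10% as lower at an unadjusted p under 0.05. Of all genes tested 60.6% were positive, and 55.7% in the fit of genes above background. Of 11 inhibitors of cysteine proteases from other families none passed by edgeR (1 higher at an unadjusted p under 0.05) or limma-voom. DESeq2 called 1 lower, Cd74, whose longer form inhibits cathepsins. There were 7 positive and 4 negative values with a median of 0.26. Spock1, a testican, led by p at 1.38 (SE 0.62), and the squamous cell carcinoma antigen genes Serpinb3a, Serpinb3c and Serpinb3d had 1.20, 1.83 and 1.46, all below 5 times the background. Serpinb3b, the copy at 46.5 times the background, had 0.26 (SE 0.60), and its groups overlapped. Of 22 cornified envelope genes and transglutaminases none passed by edgeR (3 higher at an unadjusted p under 0.05) or DESeq2, and limma-voom called 1 higher, Sprr2d. There were 16 positive and 6 negative values with a median of 0.64, and 12 positive and 2 negative with a median of 0.77 in the fit of genes above background. Sprr2d, a small proline-rich envelope protein, had 7.92 and 10.7 CPM with imiquimod and 0.774 and 3.26 CPM with Vaseline (2.20, SE 0.66), and Cdsn, the corneodesmosome protein, had 18.1 and 22.0 against 5.17 and 6.45 CPM (1.79, SE 0.61). Lce1c and Lce3a, late cornified envelope genes near the background, had 2.57 and 2.30. Of 9 further epidermal protease inhibitors 7 were tested and none passed by edgeR (1 higher at an unadjusted p under 0.05), DESeq2 or limma-voom, with a median of 0.39. Slpi, an elastase inhibitor, had 1.66 (SE 0.63), Serpinb12 -1.24, Spink5 0.66 and Serpinb6c 0.64. Of 22 other lysosomal genes none passed by edgeR (6 lower at an unadjusted p under 0.05), 19 were negative, and the median was -1.13. DESeq2 called 5 lower, Gm2a, Gusb and Lipa among them, and limma-voom 1, Gm2a, where these tools called 1.7% and 0.345% of all genes lower. Of these genes 20 lie above background, and in the fit of such genes alone 16 were negative, with a median of -0.33 against 0.08 over all genes fitted. Gm2a, the ganglioside activator, had 55.1 and 56.8 CPM with imiquimod and 266 and 571 with Vaseline (-2.90, SE 0.92), and Gusb, a lysosomal glycosidase, had -2.01 (SE 0.65).

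Genes with the most similar profile were sought over the 4 libraries by the Euclidean distance between centred log2(CPM + 0.5) values, among 11085 named genes at 5 times the background or more. Nearest to Stfa3 were Fam71f2 (distance 0.37), with 5.24 and 1.87 CPM with imiquimod and 10.7 and 43.0 with Vaseline, and then the histone genes H3c4 and H2ac10 at 0.75 and 0.77. Nearest to Cst3 were Alox5ap, the 5-lipoxygenase activating protein, at 0.08, the MHC class II gene H2-Ab1 at 0.09 and the topoisomerase gene Top2a at 0.12. Nearest to Cstb were Ccdc25, G3bp1 and Ahcyl1, at 0.03 to 0.05, and nearest to Stfa1 were Timd4, Ifi205 and Ddit4, at 0.33 to 0.43. Cst6 was nearest to Pdzd2, Pou3f1 and Eppk1, at 0.42 to 0.46, and Stfa2 to Kif21b, Pisd-ps1 and Cyth4, at 0.13 to 0.27. Stfa2 had only 0 and 1.14 CPM with imiquimod and 0.70 and 0.48 with Vaseline. The offset of 0.5 thus largely sets its profile, and its distances cannot be compared with those of the other members. With 4 libraries many genes share such a profile, and the lists describe these libraries only.

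Promoter windows of 250 bases before to 50 after the RefSeq start are given for Stfa3 (chr16:36455343-36455642, minus strand) and Stfa1 (chr16:36276898-36277197, plus strand), the stefin A members with the highest summed counts. They are from RefSeq (GRCm38.p6), which held windows for 5 of the 7 members. For Stfa1 the 2 annotations differ. Its gene in GENCODE begins at 36276951, so most of the Stfa1 window lies inside the gene as annotated there. Capitals mark matches on either strand to the letters searched, which were CCAAT for the CCAAT box, TGANTCA for AP-1, TTGCNNAA for C/EBP and CANNTG for the E-box.
Stfa3: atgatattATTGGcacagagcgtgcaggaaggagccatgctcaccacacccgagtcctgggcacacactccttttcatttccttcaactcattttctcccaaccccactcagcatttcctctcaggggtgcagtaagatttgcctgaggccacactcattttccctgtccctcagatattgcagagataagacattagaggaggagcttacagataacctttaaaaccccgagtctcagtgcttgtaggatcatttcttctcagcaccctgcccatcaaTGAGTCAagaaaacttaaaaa
Stfa1: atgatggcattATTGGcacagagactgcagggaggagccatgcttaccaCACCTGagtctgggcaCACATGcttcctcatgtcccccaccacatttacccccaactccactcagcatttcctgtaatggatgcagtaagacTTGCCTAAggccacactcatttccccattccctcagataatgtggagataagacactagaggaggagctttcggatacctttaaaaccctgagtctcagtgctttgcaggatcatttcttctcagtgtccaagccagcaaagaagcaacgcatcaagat
The windows were 81.1% identical over 296 aligned bases. Each held 1 CCAAT match, found in 37.4% of the 32851 promoter windows of this table. Stfa3 held 1 TGANTCA match (7.8% of all windows), which lies over its start codon and the bases after it, and no CANNTG match (72.3%). Stfa1 held 2 CANNTG matches and 1 TTGCNNAA match (10.8%). Neither held TATAAA (13.6%), GAGGAAGT for PU.1 (3.2%) or the interferon-stimulated response element core (3.4%), and no matches overlapped. These matches are descriptions of letters in the windows.

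How far the fitted values depend on the method is shown for Stfa3, Cst3 and Stfa1. Stfa3 was negative in each of 18 settings, from -4.19 to -1.68, and passed in 7 of them. Cst3 was negative in each of 18, from -2.96 to -1.41, and passed in 2, both DESeq2. Stfa1 ran from -0.78 to 1.71, was positive in 13 of 18 and passed in none.

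**Figure D5:**
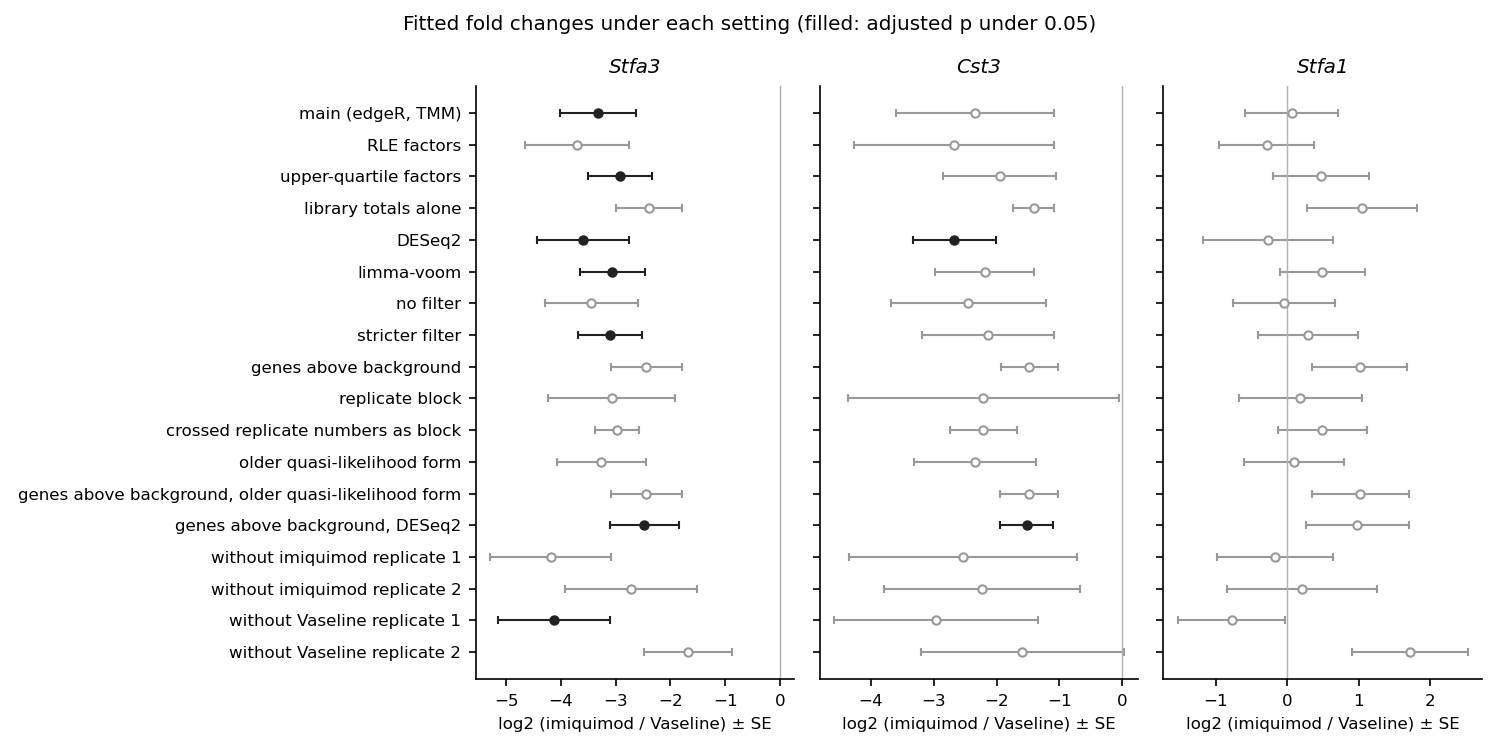
Fitted log2 fold change (imiquimod over Vaseline) ± SE of Stfa3, Cst3 and Stfa1 under each of 18 settings; filled points have an adjusted p under 0.05. Stfa3 lies between -4.19 and -1.68 and is filled in 7 settings, and Stfa1 falls on both sides of 0.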

How the data were processed

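The table deposited by the authors holds whole-number counts per gene, not scaled to depth, for 4 libraries of total RNA. Per the labels' protocols, libraries were made from 10 to 70 ng of RNA with a SMARTer stranded total RNA kit; the tools named in the submitters' processing notes are StringTie, HISAT2, Trimmomatic and SAMtools, with the build GRCm38. Versions, annotation, strand setting and multi-mapping are not given in the sources used here.

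Groups were compared with edgeR 4.0.16 (R 4.3.3; glmQLFit with legacy = FALSE, TMM factors, two-sided, Benjamini-Hochberg over all genes). Of the genes in the table, filterByExpr (defaults: counts of 10 and a total of 15) passed 39439 and removed 16048. Levels are CPM with TMM factors; the SE divides the log2 fold change by the root of F. Lengths are exon unions of GENCODE release M21, which matched 55227 of 55487 genes. Background is the median count per kilobase over 1768 receptor genes; 14602 genes passed a mean ratio of 5 and the filter. Alternatives were DESeq2 1.42.0, limma 3.58.1 (voom), other factors, filters, a replicate block and leaving out each library. Sequences were aligned with MAFFT 7.526; tables used Python 3.11.15, pandas 2.3.3, numpy 2.4.6 and matplotlib 3.10.9. Listed symbols were matched to the table directly or through GENCODE names.

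Members and lists were chosen with earlier results of these data known. Named genes are the 7 members; up to 4 genes of smallest p per list, plus any past the threshold; and the 3 nearest profiles of each tested member. Cst7, Ctsl, Lgmn, Serpinb3b, Cd74 and Lipa were named after their values were seen. Not every gene named by this rule is reported here.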

Additional observations from a re-analysis of the deposited data

How the results depend on the processing

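Counts of genes called depended on the method. Against 25 higher and 54 lower, they were 17 and 14 under RLE scaling, 41 and 56 under upper-quartile scaling, 8 and 5 on library totals alone, 6 and 669 with DESeq2, 41 and 136 with limma-voom, 0 and 0 with no filter (3185 and 1996 at an unadjusted p under 0.05 by edgeR), and 27 and 124 with the stricter filter. Among genes above background they were 0 and 0 by either edgeR form (798 and 699 at an unadjusted p under 0.05 in the form used throughout) and 97 and 156 by DESeq2. The older quasi-likelihood form, DESeq2 on genes above background and the crossed pairing were added after the data were seen; the older form called 3 and 5. With 1 library left out, counts ran from 8 to 2959 higher and from 0 to 317 lower. The cause was not tested.

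Of the members, 1 was called lower and 0 higher. With RLE factors, library totals, no filter, genes above background (either edgeR form), the older form or the replicate block 0 were lower; with DESeq2, on all genes or on those above background, 2 were (Stfa3 and Cst3). Stfa3 had an adjusted p of 0.0952 with RLE factors, 0.298 on library totals, 0.496 with no filter and 0.508 in the older form. With 1 library left out, 0 to 1 were lower and 0 to 1 higher; the member called higher was Stfa2l1 without Vaseline 1 (log2 fold change 8.55, against a Vaseline library with no count, so the size is set by the prior count). Stfa1 turned negative with RLE factors (-0.29), DESeq2 (-0.27) and no filter (-0.05), and ran from -0.78 to 1.71 with 1 library left out. Stfa2 turned negative with DESeq2 (-0.32), limma-voom (-0.54), the crossed pairing (-0.14) and the older form (-0.01), and ran from -7.31 to 0.88 with 1 library left out, the lowest resting on the imiquimod library with no count. Scaling moved the median of all genes tested to 0.16 under RLE, 0.76 under upper-quartile scaling and 1.30 on library totals, against 0.41.

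The replicate block, from the numbers in the titles, called 1 higher and 0 lower (1856 and 397 at an unadjusted p under 0.05 by edgeR), and Stfa3 had -3.07 (adjusted p = 0.705). Same-numbered libraries did not deviate together (correlation -0.331 over genes). This rests on 1 difference between libraries per treatment, so it cannot settle whether the numbers pair the samples. With crossed pairing 0 genes and 0 members were called (3420 and 4880 genes at an unadjusted p under 0.05 by edgeR). By longest transcript 2 of 28 member ranks differed, and by coding length 12. Counts of 0 limit Stfa2 (imiquimod 1) and Stfa2l1 (imiquimod 1 and Vaseline 2, the deepest library); the part of depth in them was not tested.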
